A study of Mus musculus with 10 samples.

Results

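Cycling Atoh1-positive wells are wells of sorted single cells from the crypts of the mouse small intestine that held at least 1 transcript of Atoh1 and at least 5 transcripts of the proliferation genes Mki67 and Top2a together. Of 1615 used wells, those with at least 1000 transcripts of endogenous genes, 152 met both conditions and are called members here. They were set against 286 cycling wells with no Atoh1 transcript, which met the same proliferation threshold, and against 393 non-cycling Atoh1-positive wells, which did not reach it. The other 784 used wells were non-cycling and had no Atoh1 transcript.

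Every group came from small intestinal crypts of C57Bl/6 mice, and the labels give no treatment, genotype, age or marker used for the sort. Cells were sorted into plates of 384 wells with spike-in RNA and read by CEL-seq2, which tags each poly(A) RNA molecule near its 3' end with a well barcode and a molecule barcode. The 7 sorted libraries are GK5a-M2-1 to GK5a-M2-5, GK5b-G and Gk5b-L, and the labels explain neither the codes nor their endings. No label ties a library to an animal; every p-value here reflects library-to-library spread alone, part of which may be technical.

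Atoh1 is the transcription factor that intestinal cells need to enter the secretory fate, which yields goblet, Paneth and enteroendocrine cells. In the crypt, cells with Atoh1 put the Notch ligands Dll1 and Dll4 on their surface, and neighbours that receive the signal make Hes1, which represses Atoh1. Cells that keep Atoh1 withdraw from the cell cycle as they mature, and goblet and Paneth cells then devote much of their endoplasmic reticulum to secreted proteins.

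Members were spread unevenly over the libraries. GK5b-G gave 86 of the 152 members, which is 56.6%, Gk5b-L gave 25, and the 5 GK5a libraries gave between 5 and 12 each. Among cycling wells, the share with an Atoh1 transcript was 72.9% in GK5b-G (95% exact Clopper-Pearson interval 63.9 to 80.7%), 32.9% in Gk5b-L (22.5 to 44.6%), and from 10.3 to 23.3% in the GK5a libraries. The GK5b-G interval lay above those of all the other libraries. GK5b-G also stood apart in its whole make-up, with Atoh1 in 76.5% of used wells against 49.8% in Gk5b-L and 15.9 to 23.2% in GK5a. Counts for the GK5a libraries alone or without GK5b-G stand beside the lists below whose counts moved most with them.

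**Figure D1:**
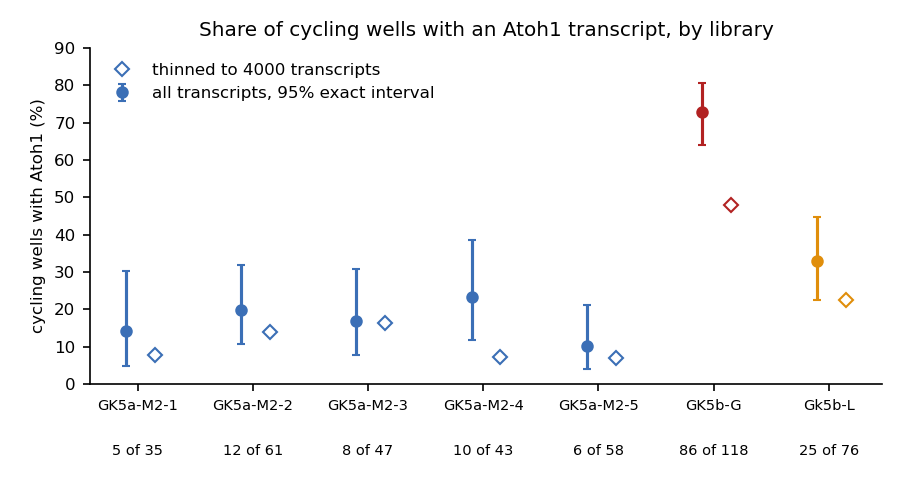
Share of cycling wells with an Atoh1 transcript (y axis, percent) in each sorted library (x axis), with the number of members of the number of cycling wells under each name. Filled circles use all transcripts, with bars for the 95% exact interval, and open diamonds use wells thinned to 4000 transcripts. GK5b-G lies highest on both measures, at 72.9% and 47.9%.

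Atoh1 transcripts were also counted in wells rich in enterocyte transcripts, taken as the 10% of each library's used wells with the highest share of them. These wells started at 1.35% enterocyte transcripts or more in the GK5a libraries and at 0.86% in GK5b, so the GK5b wells are a looser comparison. An Atoh1 transcript was counted in 4 of 111 GK5a wells (3.6%, median depth 6021 transcripts) and in 23 of 54 GK5b wells (42.6%, median depth 25601). Of the 23 GK5b wells 16 are themselves members, as are 0 of the 4 GK5a wells, so the GK5b share is no measure of background alone. With every well thinned to 4000 transcripts the counts were 0 of 69 and 2 of 53. Thinned in the same way, for which 419 of 438 cycling wells were deep enough, the share of cycling wells with Atoh1 was 47.9% in GK5b-G, 22.4% in Gk5b-L and from 6.9 to 16.3% in GK5a. Intervals and floors here cover counting error only.

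The rule fixed the range of Atoh1 (GRCm38 chromosome 6, 64729125 to 64731245, plus strand) and of the proliferation genes, so their values are a description. In the members the median was 5 Atoh1 transcripts and the highest 45. A single Atoh1 transcript qualified 36 members, 37 had 2 to 4, 38 had 5 to 9 and 41 had 10 or more. Mki67 and Top2a together had a median of 28 and a highest value of 344, and 91 members had 20 or more. Just inside the threshold, 4 members had 5 and 8 had 6, and just outside it 18 Atoh1-positive wells had 4 and 26 had 3. Of the non-cycling Atoh1-positive wells, 197 of 393 had none of either transcript.

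Members were deep wells. Their median total was 20303 transcripts from 4898 genes, against 14747 transcripts in cycling Atoh1-negative wells and 8380 in non-cycling Atoh1-positive wells. Within libraries the members' median was above that of cycling Atoh1-negative wells in 4 of 7 and above that of non-cycling Atoh1-positive wells in 7 of 7. Over the wells of all libraries together, the median log2 ratio of endogenous to spike-in transcripts was 6.85 in members. It was 5.42 in cycling Atoh1-negative wells and 5.37 in non-cycling Atoh1-positive wells. The deeper GK5b plates gave 73.0% of members, but 83 cycling Atoh1-negative wells beside 203 from GK5a. Median totals of members and cycling Atoh1-negative wells were 12811 and 12469 in GK5a, and 23346 and 20828 in GK5b. The ratio was not compared within libraries, so a difference in RNA per well between the classes was not tested. No doublet caller was run, 8 well positions held a member in both GK5b plates, and the part of wells with several cells in the results was not tested.

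For the comparisons between classes, the wells of a class were summed within each library, giving 7 sums per class, and the members' sums held between 75524 and 2176464 transcripts. Levels are given in CPM, a gene's transcripts scaled to a common total of endogenous transcripts. For the differences, each sum's total was multiplied by a trimmed mean factor, which the printed levels do not include. Against non-cycling Atoh1-positive wells the factor was 1.04 to 1.24 in members and 0.804 to 1.01 in the other class. Differences in that comparison therefore lie lower than the printed levels alone would give. They are log2 differences of CPM + 10 with their standard error, tested across all genes with limma with the library as a block. A gene passed at a Benjamini-Hochberg adjusted p under 0.05. Levels are given as the lowest, the median and the highest of the 7 libraries. The 2 main comparisons share the members' sums, so their values are set side by side and not correlated.

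Secretory transcription factors other than Atoh1 were not used by the rule, among them the markers Creb3l1, Spdef and Id4. The markers and lists were chosen with earlier results of these data known, so they are no independent check of the labelled identity. Against cycling Atoh1-negative wells, 12 of the 17 tested secretory transcription factors rose in members and 5 did not pass, with a list median of 1.47 beside -0.114 over all 6988 genes. The background was 4.54% of all tested genes higher and 4.09% lower. In the GK5a libraries alone 11 of 17 rose, and without GK5b-G also 11 of 17, and over 21 alternatives the count ran from 8 to 13. Against non-cycling Atoh1-positive wells, 8 of 18 fell and 1 rose, where 16.8% of all 6757 tested genes fell and 9.07% rose. The latter was Sox4 (0.90 ± 0.24, limma adjusted p = 0.011), which did not pass in the GK5a libraries alone (adjusted p = 0.10). Wells were chosen by Atoh1 itself, so the first comparison describes whether other genes of the program moved with it.

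Creb3l1 encodes a membrane-bound transcription factor of the secretory pathway (GRCm38 chromosome 2, 91982328 to 92024502, minus strand). Its levels were 200, 472 and 667 CPM in members, 4.3, 14.1 and 45.8 CPM in cycling Atoh1-negative wells, and 286, 664 and 836 CPM in non-cycling Atoh1-positive wells. Every library's members lay above every library's cycling Atoh1-negative wells, while members and non-cycling Atoh1-positive wells overlapped. The difference was 3.96 ± 0.20 (limma adjusted p = 6.8e-09), higher in 7 of 7 libraries, and -0.81 ± 0.11 (adjusted p = 1e-04) against non-cycling Atoh1-positive wells. Without the deepest wells, the top 10% by total, the second difference was -0.31 (adjusted p = 0.14).

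Spdef, an ETS factor that drives goblet and Paneth cell maturation (chromosome 17, 27714352 to 27728955, minus strand), stood at 53, 81.8 and 156 CPM in members. It was at 0, 1.74 and 18 CPM in cycling Atoh1-negative wells and at 147, 177 and 249 CPM in non-cycling Atoh1-positive wells. Members thus lay between the other classes, without overlap on the lower side. Spdef differed by 2.82 ± 0.22 (limma adjusted p = 3.7e-07) and by -1.34 ± 0.17 (adjusted p = 4.3e-05).

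Id4, a helix-loop-helix protein that lacks a DNA-binding region (chromosome 13, 48261228 to 48266026, plus strand), had 13.2, 55.1 and 92.2 CPM in members and 27.8, 67.6 and 129 CPM in non-cycling Atoh1-positive wells. In cycling Atoh1-negative wells it was at 0 in 5 of 7 libraries and at most 8.33 CPM. The difference of 2.38 ± 0.30 (limma adjusted p = 5.8e-05) separated members from cycling Atoh1-negative wells in 7 of 7 libraries. The difference of -0.61 ± 0.25 from non-cycling Atoh1-positive wells did not pass (adjusted p = 0.087). Adding 10 CPM compresses such low genes: with 1 CPM added instead, the first difference was 4.91 for Id4 and 4.75 for Spdef.

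By well, a Creb3l1 transcript was counted in 128 of 152 members, Spdef in 94, Id4 in 73, and Spdef with Creb3l1 in 92. Thinned to 4000 transcripts, Creb3l1 was in 74.4% of GK5a and 69.1% of GK5b members, from 90.2% and 82.0% unthinned. In cycling Atoh1-negative wells the thinned shares of Creb3l1 were 2.14% and 15.7%, from 11.8% and 37.3%. Spdef was in 17.9% of thinned GK5a members and in 44 of 110 thinned GK5b members, from 53.7% and 64.9% unthinned, against 1.6% and 4.82% of thinned cycling Atoh1-negative wells. The members' shares stayed above those of cycling Atoh1-negative wells in both codes and at both depths.

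Other factors of the list differed in their patterns. Klf4, a zinc finger factor of maturing goblet cells, stood at 138, 338 and 486 CPM in members, below all libraries' non-cycling Atoh1-positive wells (560, 602 and 733 CPM) and above all cycling Atoh1-negative wells (15.2, 35.2 and 73.6 CPM). Its differences were 2.90 ± 0.18 and -1.23 ± 0.16, and both passed. Gfi1, a repressor that acts after Atoh1 in secretory cells, was at 24.2, 52.5 and 76 CPM in members and overlapped with 33.8, 55.3 and 82.6 CPM in non-cycling Atoh1-positive wells. Gfi1 was higher than in cycling Atoh1-negative wells by 2.17 ± 0.30, and the difference of -0.40 ± 0.21 from non-cycling Atoh1-positive wells did not pass (limma adjusted p = 0.17). Foxa1, a forkhead factor of secretory differentiation, rose by 1.47 ± 0.18 against the former and differed by -0.39 ± 0.15 from the latter (adjusted p = 0.075). Sox9, a factor of the crypt base, differed by -0.09 ± 0.17 from cycling Atoh1-negative wells (adjusted p = 0.80).

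**Figure D2:**
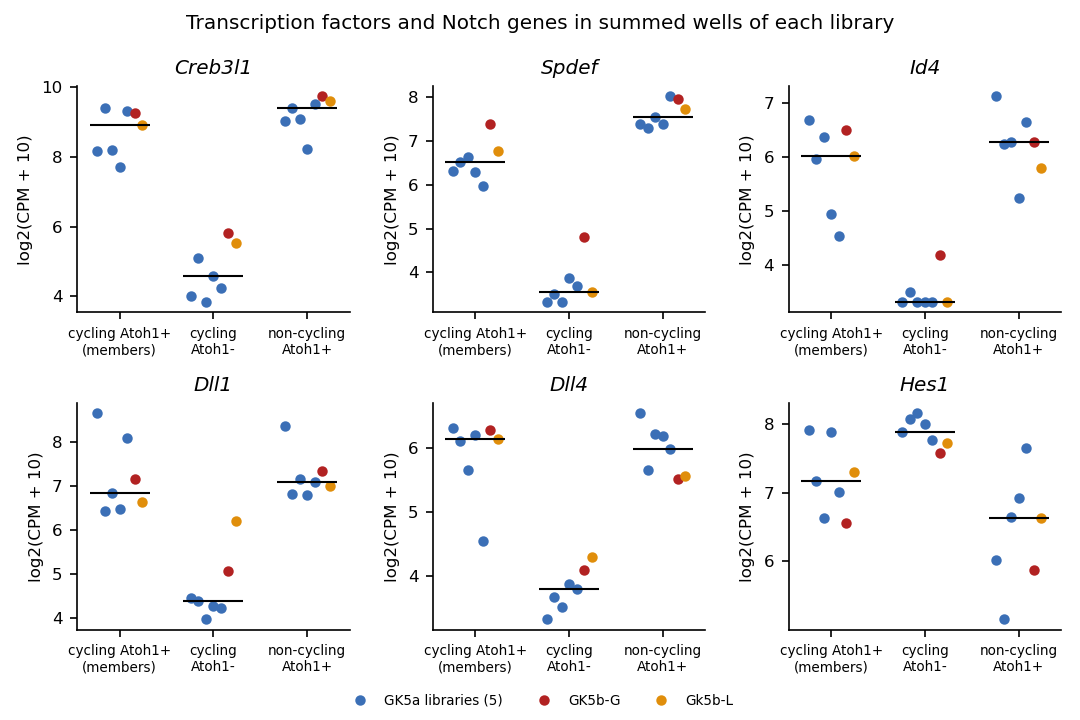
Level of 6 genes as log2(CPM + 10) (y axes) in the summed wells of each library, by class of well (x axes). Each point is 1 library, coloured by library code, and the bar is the median of the 7 libraries. Creb3l1, Spdef, Id4, Dll1 and Dll4 of the members lie above all cycling Atoh1-negative sums, and Hes1 overlaps.

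Genes of the Notch pathway did not move as a group. Of 16 tested against cycling Atoh1-negative wells, 2 rose, the ligands Dll1 and Dll4, and 1 fell, Hes1, and the list median was -0.165. Of all tested genes 4.54% rose and 4.09% fell. Dll1 (chromosome 17, 15367354 to 15376872, minus strand) was at 75.9, 105 and 392 CPM in members, 5.74, 10.9 and 63.5 CPM in cycling Atoh1-negative wells, and 101, 127 and 321 CPM in non-cycling Atoh1-positive wells. Members lay above all cycling Atoh1-negative sums and overlapped with non-cycling Atoh1-positive ones. The Dll1 difference was 2.51 ± 0.32 (limma adjusted p = 7.9e-05), and -0.33 ± 0.17 against non-cycling Atoh1-positive wells (adjusted p = 0.19). Without GK5a-M2-5 the latter was -0.48 and passed (adjusted p = 0.03).

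Dll4 (chromosome 2, 119325784 to 119335962, plus strand) had 13.2, 60.1 and 69.1 CPM in members and 0, 3.89 and 9.56 CPM in cycling Atoh1-negative wells, with no overlap. In non-cycling Atoh1-positive wells it had 35.6, 53 and 82.6 CPM. The differences were 2.08 ± 0.27 (limma adjusted p = 1e-04) and -0.30 ± 0.24 (adjusted p = 0.39). By printed level, members lay above non-cycling Atoh1-positive wells in 4 of 7 libraries, while the second difference includes the trimmed mean factor. By well, 106 of 152 members held a Dll1 transcript, 82 a Dll4 transcript and 72 both. Thinned to 4000 transcripts, which 149 members reached, Dll1 was counted in 33.3% of GK5a members and in 33 of 110 GK5b members, from 63.4% and 72.1% unthinned. In cycling Atoh1-negative wells the thinned shares of Dll1 were 6.95% and 16.9%, from 10.3% and 36.1%.

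Hes1, the Notch target that represses Atoh1 (chromosome 16, 30064384 to 30067796, plus strand), was still present in members. It stood at 84.2, 134 and 231 CPM in members, 182, 228 and 276 CPM in cycling Atoh1-negative wells, and 25.6, 89.1 and 191 CPM in non-cycling Atoh1-positive wells. Members were lower than cycling Atoh1-negative wells in 6 of 7 libraries, with overlapping ranges. The fall of -0.70 ± 0.17 passed (limma adjusted p = 0.014) but not in the GK5a libraries alone (-0.71, adjusted p = 0.063), nor without GK5a-M2-2 (-0.66, adjusted p = 0.058) or GK5a-M2-3 (-0.55, adjusted p = 0.052). The difference from non-cycling Atoh1-positive wells was 0.52 ± 0.27 (adjusted p = 0.18), and it passed without GK5a-M2-5 (0.78, adjusted p = 0.034). A Hes1 transcript was counted in 95 of 152 members, and 56 members held Dll1 and Hes1 together. Nrarp, a Notch target that dampens the signal, was at 21, 53.8 and 96.9 CPM in members, close to the 45.2, 51.6 and 70.7 CPM of cycling Atoh1-negative wells. Nrarp was higher than in non-cycling Atoh1-positive wells (0, 7.81 and 21.2 CPM) by 1.28 ± 0.32 (adjusted p = 0.0083), and this did not pass in the GK5a libraries alone (1.24, adjusted p = 0.065).

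Goblet cell genes had the highest median of the lists tested against cycling Atoh1-negative wells. Of 22 tested goblet genes 20 rose and the other 2 did not pass, with a median of 2.87. Against non-cycling Atoh1-positive wells 22 of 22 fell, with a median of -2.14. The 24 genes of the list summed to 0.92, 2.68 and 4.08% of all transcripts in members, to 0.102, 0.342 and 1.12% in cycling Atoh1-negative wells, and to 7.91, 10.8 and 14.0% in non-cycling Atoh1-positive wells. Members did not overlap with the non-cycling class and overlapped only slightly with the cycling one, whose highest value came from GK5b-G. In the GK5a libraries alone 19 of 21 goblet genes rose.

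Agr2, a protein disulfide isomerase needed for mucin folding, had the largest increase of the genes named by rule. It was at 1090, 3190 and 5260 CPM in members, 27.2, 137 and 562 CPM in cycling Atoh1-negative wells, and 5890, 7530 and 11100 CPM in non-cycling Atoh1-positive wells. The 3 classes did not overlap, and the differences were 4.75 ± 0.32 (limma adjusted p = 8.1e-08) and -1.80 ± 0.21 (adjusted p = 2.5e-05). Muc2, the gel-forming mucin of goblet cells (chromosome 7, 141690340 to 141754693, plus strand), was at 590, 3160 and 6880 CPM in members, 30.4, 564 and 2200 CPM in cycling Atoh1-negative wells, and 12100, 17000 and 23200 CPM in non-cycling Atoh1-positive wells. Muc2 of the members overlapped with the cycling class but stayed under the non-cycling class, with differences of 3.36 ± 0.33 (adjusted p = 3.7e-06) and -2.86 ± 0.22 (adjusted p = 1.4e-06). Zg16, a lectin of mucus granules, had the steepest step among the 4 named here. Its levels were 399, 2380 and 3730 CPM in members and 14700, 21300 and 33300 CPM in non-cycling Atoh1-positive wells, a difference of -3.94 ± 0.28. Fcgbp, a mucus protein that binds Muc2, differed by 4.51 ± 0.40 and -2.16 ± 0.12.

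Goblet transcripts were counted in nearly every well of the GK5b plates. In cycling Atoh1-negative wells a Muc2 transcript was counted in 83 of 83 GK5b wells and 97 of 203 GK5a wells (47.8%), and after thinning in 94.0% and 21.4%. The share of members with a Muc2 transcript, 147 of 152, is therefore not read as expression well by well. The levels of the goblet list differed nonetheless within both codes: the median member had 2.64% in GK5a and 3.58% in GK5b, against 0.107% and 0.319% in cycling Atoh1-negative wells.

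Genes of the endoplasmic reticulum and secretory pathway rose together with the goblet genes. Against cycling Atoh1-negative wells 30 of 45 tested genes rose and 15 did not pass, with a median of 0.656. Against non-cycling Atoh1-positive wells 43 of 45 fell, with a median of -0.817. That count was 27 of 45 with library totals (median -0.525), 31 in the GK5a libraries alone and 31 without GK5b-G, and it ran from 23 to 45 over 22 alternatives. The 47 genes of the list summed to 1.06, 1.36 and 1.69% of transcripts in members, to 0.764, 0.782 and 0.895% in cycling Atoh1-negative wells, and to 1.64, 1.90 and 2.44% in non-cycling Atoh1-positive wells. The members' sums lay above every cycling Atoh1-negative sum. In the GK5a libraries alone 15 of 45 rose, and 23 of 45 without GK5b-G.

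Txndc5, a thioredoxin-type oxidoreductase of the endoplasmic reticulum, was at 463, 708 and 1040 CPM in members, 53.1, 87.1 and 174 CPM in cycling Atoh1-negative wells, and 997, 1380 and 1740 CPM in non-cycling Atoh1-positive wells. It did not overlap with the cycling class, and the differences were 2.76 ± 0.16 (limma adjusted p = 4.5e-08) and -1.26 ± 0.11 (adjusted p = 3.9e-06). Manf, a secreted stress-induced chaperone, was at 334, 423 and 583 CPM in members, 185, 200 and 228 CPM in cycling Atoh1-negative wells, and 418, 588 and 802 CPM in non-cycling Atoh1-positive wells. Manf differed by 1.04 ± 0.11 (adjusted p = 9.8e-06) and by -0.78 ± 0.12 (adjusted p = 2.1e-04). Xbp1, the transcription factor of the unfolded protein response in secretory cells, was at 315, 490 and 661 CPM in members against 210, 250 and 268 CPM in cycling Atoh1-negative wells. The Xbp1 difference was 0.84 ± 0.14 (adjusted p = 9.9e-04), and -0.84 ± 0.11 (adjusted p = 6.9e-05) against non-cycling Atoh1-positive wells.

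The promoters of several of these genes share a motif, which is shown because the genes rose together. The ER stress element, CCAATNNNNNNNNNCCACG, is the site described for Atf6 and NF-Y and is related to the unfolded protein response. It was searched on both strands in RefSeq windows of 300 bases (GRCm38.p6, 250 bases before to 50 after each start), and its matches held no CAGCTG. A match was present in 7 of the 23 genes of the list that rose and have a window (30.4%), in 1 of 13 tested but not higher, and in 37 of all 27025 genes (0.137%). The list was made of endoplasmic reticulum genes and the element is one of ER stress. Its share in the list is therefore a description and was not tested. Among all genes higher in members 8 of 233 held it (3.43%), among tested genes 11 of 5317 (0.207%), and among genes lower in members 0 of 223. The 8 matches in the 7 genes lie 25 to 193 bases before the start, 5 as read and 3 on the opposite strand, and Hsp90b1 has 2. Each is shown with 20 bases on either side, with the fixed bases of the motif in capitals.
Calr, chr8:84847055-84847113, minus strand: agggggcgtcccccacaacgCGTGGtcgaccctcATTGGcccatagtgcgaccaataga
Creld2, chr15:88819500-88819558, plus strand: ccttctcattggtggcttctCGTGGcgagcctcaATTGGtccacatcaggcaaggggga
Dnajc3, chr14:118937807-118937865, plus strand: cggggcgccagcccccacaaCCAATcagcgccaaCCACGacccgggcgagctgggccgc
Hsp90b1, chr10:86705618-86705676, minus strand: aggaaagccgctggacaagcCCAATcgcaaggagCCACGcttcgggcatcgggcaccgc
Hsp90b1, chr10:86705513-86705571, minus strand: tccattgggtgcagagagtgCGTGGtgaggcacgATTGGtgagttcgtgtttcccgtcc
Hspa5, chr2:34772005-34772063, plus strand: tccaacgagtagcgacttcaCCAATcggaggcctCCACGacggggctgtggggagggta
Pdia6, chr12:17266471-17266529, plus strand: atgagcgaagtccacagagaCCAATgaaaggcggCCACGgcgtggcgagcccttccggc
Syvn1, chr19:6046512-6046570, plus strand: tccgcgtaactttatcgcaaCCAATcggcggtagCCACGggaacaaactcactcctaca

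These 7 genes encode chaperones, foldases and a ubiquitin ligase of the endoplasmic reticulum, and their differences from cycling Atoh1-negative wells ranged from 0.61 to 1.18, the highest in Pdia6. The E-box CAGCTG, a sequence that basic helix-loop-helix factors such as Atoh1 can bind, was in 22.3% of the windows of higher genes, 13.0% of lower genes and 15.8% of tested genes. It was in 5 of 11 goblet genes that rose and have a window (Ccl9, Fcgbp, Guca2a, Muc2 and Slc12a8). The core of the Rbpj site, TGGGAA, searched on both strands, was in 24.9% of higher and 24.9% of tested genes. A match describes the sequence and does not show a bound site.

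**Figure D3:**
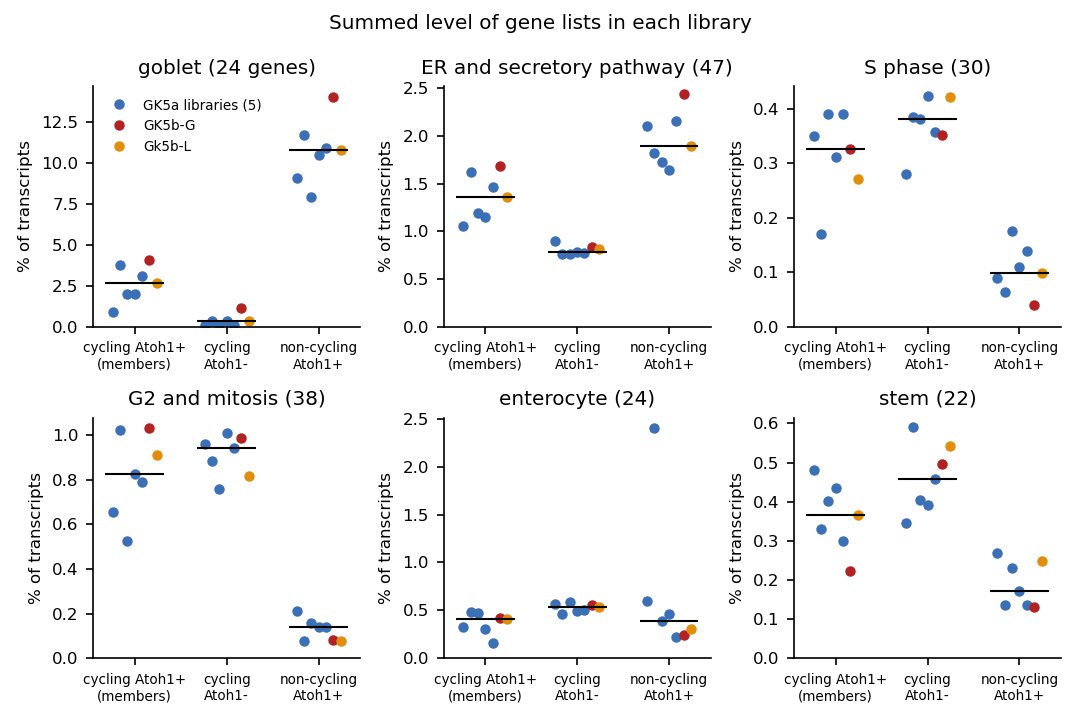
Sum of the genes of 6 lists as percent of all endogenous transcripts (y axes) in each library's summed wells, by class (x axes). Each point is 1 library and the bar is the median of 7. In goblet and ER genes the members' median (2.68% and 1.36%) lies between the other classes, and in S phase and G2 and mitosis genes the members overlap with the cycling Atoh1-negative wells.

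Paneth cell genes were higher in members than in cycling Atoh1-negative wells, at low levels in nearly all wells. Of 11 tested genes of the list, 6 rose, among them Defa24, Guca2b, Itln1, Lyz1 and Mmp7, and 5 did not pass, with a median of 2.16. Without GK5a-M2-4 only 6 genes were tested and 6 rose, with a median of 2.315, so some of the 11 reached the filter through that library. In members, Ang4 and Mptx2 of the list stood at 2270 and 3040 CPM there, with medians of 17.9 and 5.52 CPM over the 7 libraries. Against non-cycling Atoh1-positive wells 17 of 18 fell, with a median of -2.57 and from 6 to 18 lower genes over 22 alternatives. Defensin genes are near-identical copies, so their values are uncertain. The 19 genes summed to 0.023, 0.144 and 3.85% of transcripts in members, to 0.00918, 0.0176 and 0.0344% in cycling Atoh1-negative wells, and to 0.255, 1.53 and 2.99% in non-cycling Atoh1-positive wells. The highest member value came from GK5a-M2-4 and from 1 well in it, with 36.0% Paneth transcripts among 19589, 1 Atoh1 transcript, and 5 each of Mki67 and Top2a. The other 9 members of that library had at most 1.03%, and no other member of any library exceeded 2.13%.

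Mmp7, the protease that activates Paneth defensins, was at 0, 475 and 858 CPM in members, 0, 15 and 82 CPM in cycling Atoh1-negative wells and 294, 892 and 1720 CPM in non-cycling Atoh1-positive wells. Higher in 6 of 7 libraries, it differed by 3.24 ± 0.48 (limma adjusted p = 3.1e-04) and by -1.85 ± 0.43 (adjusted p = 0.0054). Lyz1, the Paneth lysozyme, was chosen after its values were seen. It stood at 96.9, 184 and 21000 CPM in members and at 35.9, 63.8 and 122 CPM in cycling Atoh1-negative wells. Its difference of 2.19 ± 0.56 (adjusted p = 0.021) was 1.34 without GK5a-M2-4, the library of the single Paneth-rich well (adjusted p = 0.0014).

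Markers of other secretory types were near 0. No member exceeded 1% in the enteroendocrine or the tuft list, and 0 of 18 enteroendocrine transcription factors reached the filter in any comparison. Neurog3, which starts the enteroendocrine program, had a transcript in 1 of 152 members, Neurod1 in 0, which allows up to 1.97% of wells with a transcript and sets no limit on wells that express it below detection, and the tuft marker Dclk1 in 1. The enteroendocrine list summed to 0.00806, 0.0265 and 0.0419% and the tuft list to 0.00115, 0.00294 and 0.00646% of members' transcripts. Of 5 tested enteroendocrine genes 2 rose against cycling Atoh1-negative wells, Sct and Reg4, and 1 fell, Ddc, which did not pass without GK5b-G (-0.58, limma adjusted p = 0.057). Sct, the secretin gene, was at 11.5, 66.2 and 109 CPM in members, below the 122, 148 and 239 CPM of non-cycling Atoh1-positive wells. Immune, stromal and erythroid lists each summed to at most 0.00388% of the transcripts of any library's members.

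Absorptive genes were lower in members than in cycling Atoh1-negative wells. Of 15 tested enterocyte genes 8 fell, among them Dgat1, Mttp and Sis, and 1 rose, Fabp2, with a median of -0.828. Over 21 alternatives 2 to 9 fell, with 6 of 15 for members with 2 or more Atoh1 transcripts. Dgat1, which makes triglycerides, was at 104, 153 and 210 CPM in members and 211, 262 and 323 CPM in cycling Atoh1-negative wells, without overlap, and differed by -0.75 ± 0.12 (limma adjusted p = 9.2e-04). Fabp2, a fatty acid binding protein, was higher by 0.54 ± 0.11 (adjusted p = 0.0057) in 7 of 7 libraries and did not pass in the GK5a libraries alone (0.47, adjusted p = 0.076). Among genes outside the lists, Ccl25, an epithelial chemokine, was at 66.2, 425 and 704 CPM in members and 687, 848 and 963 CPM in cycling Atoh1-negative wells. Ccl25 was lower in 7 of 7 libraries, by -1.26 ± 0.27 (adjusted p = 0.0064). Rgcc had the largest fall of the genes named by rule, -1.46 ± 0.33 (adjusted p = 0.0096), from 15.2, 37.5 and 47.4 CPM to 0, 1.84 and 31.5 CPM, and it did not pass in the GK5a libraries alone (adjusted p = 0.064).

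The number of stem cell genes lower in members depended on the setting. Of 14 tested against cycling Atoh1-negative wells 2 fell, Ascl2 and Cdca7, and 12 did not pass, with a median of -0.346. Of all tested genes 4.09% fell. The count of lower stem cell genes was 1 of 14 in the GK5a libraries alone. It was 5 of 14 for members with 2 or more Atoh1 transcripts (median -0.582), and it ran from 0 to 9 over 21 alternatives. Cdca7, a gene of dividing crypt cells, differed by -0.71 ± 0.20 (limma adjusted p = 0.037), and leaving out any 1 of GK5a-M2-2, GK5a-M2-3, GK5a-M2-5, GK5b-G and Gk5b-L ended the call (adjusted p from 0.053 to 0.12). Ascl2, a factor of crypt stem cells, was at 9.19, 17.5 and 137 CPM in members and 60.7, 85.2 and 132 CPM in cycling Atoh1-negative wells, where the highest member value came from GK5a-M2-4. The Ascl2 difference was -1.30 ± 0.30 (limma adjusted p = 0.011) and did not pass without GK5a-M2-2 (-1.12, adjusted p = 0.0503). Lgr5, the receptor that marks crypt stem cells, was at 0, 24.2 and 138 CPM in members against 37.5, 84.7 and 124 CPM, and -1.37 ± 0.42 did not pass (adjusted p = 0.056). Without GK5a-M2-1 the Lgr5 difference was -1.70 and without GK5a-M2-4 -1.73, both with an adjusted p of 0.021. A Lgr5 transcript was counted in 30 of 152 members, and Spdef and Lgr5 together in 14. Against non-cycling Atoh1-positive wells 6 of 13 stem genes rose (0 to 8 genes over 22 alternatives), among them the Wnt target Axin2 (0.95 ± 0.19, adjusted p = 0.002) and the water channel Aqp4 (1.27 ± 0.20, adjusted p = 3e-04), and 1 fell. Without the deepest wells, the top 10% by total, these 2 differences were 0.25 and 0.28 and did not pass (adjusted p = 0.71 and 0.73).

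The summed cell cycle lists of members overlapped with those of other cycling wells. Against cycling Atoh1-negative wells 0 of 38 G2 and mitosis genes passed limma's test, with 6 lower at an unadjusted p under 0.05 and a median of -0.204. Of 29 S phase genes 2 fell, Prim1 and Uhrf1, where 4.09% of all tested genes fell. At an unadjusted p under 0.05, 8 were lower and 0 higher. The S phase median was -0.321 beside -0.114 over all genes, with from 0 to 7 lower genes over 21 alternatives. Genes without a pass do not show that the classes were alike. Both classes were chosen by Mki67 and Top2a, so these levels are a description. G2 and mitosis genes summed to 0.524, 0.827 and 1.03% of transcripts in members and to 0.757, 0.943 and 1.01% in cycling Atoh1-negative wells, with overlap. S phase genes summed to 0.171, 0.326 and 0.391% against 0.28, 0.382 and 0.423%. Prim1, a DNA primase subunit, differed by -0.62 ± 0.18 (adjusted p = 0.044) and did not pass when any 1 of the replicates GK5a-M2-2 to GK5a-M2-5, GK5b-G or Gk5b-L was left out (adjusted p from 0.051 to 0.14). Uhrf1, which helps copy DNA methylation, differed by -0.64 ± 0.19 (adjusted p = 0.046), with adjusted p from 0.051 to 0.14 when GK5a-M2-1, GK5a-M2-2, GK5a-M2-4, GK5b-G or Gk5b-L was left out. Of 20 cyclins, kinases and inhibitors 1 rose, near the 4.54% of all tested genes that rose. It was the antiproliferative gene Btg2 (0.80 ± 0.23, limma adjusted p = 0.038). Its call ended when any library other than Gk5b-L was left out (adjusted p from 0.058 to 0.12).

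Against non-cycling Atoh1-positive wells 37 of 37 G2 and mitosis genes and 25 of 27 S phase genes rose, with medians of 2.24 and 1.14, as a description, since the wells were divided by 2 genes of this program. In the GK5a libraries alone 13 of 26 S phase genes rose, and over 22 alternatives the S phase count ran from 12 to 27. Ccna2, the cyclin of S phase and G2, was at 253, 405 and 514 CPM in members, 389, 429 and 506 CPM in cycling Atoh1-negative wells and 14.7, 38.3 and 68.9 CPM in non-cycling Atoh1-positive wells. Of the cyclins, kinases and inhibitors 6 of 16 rose and 3 fell, with 3 of 16 higher in the GK5a libraries alone. Of all genes tested in this comparison 9.07% rose and 16.8% fell, so the 3 lower genes are near the background. Cdkn1a, the p21 inhibitor of cell cycle kinases, was at 21, 37.2 and 99.3 CPM in members, 6.94, 38.1 and 54.7 CPM in cycling Atoh1-negative wells and 45.9, 111 and 264 CPM in non-cycling Atoh1-positive wells. Members were lower than the latter in 7 of 7 libraries, with -1.63 ± 0.21 (limma adjusted p = 4.4e-05), and differed by 0.22 ± 0.27 from the former (adjusted p = 0.67). Ccnd1, a cyclin of G1, was higher by 0.68 ± 0.16 (adjusted p = 0.0049). The split of calls in this comparison depends on the scaling: with library totals in place of trimmed means the median of all genes moved from -0.081 to 0.176 and the share of called genes that were higher from 35.1% to 69.5%.

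**Figure D4:**
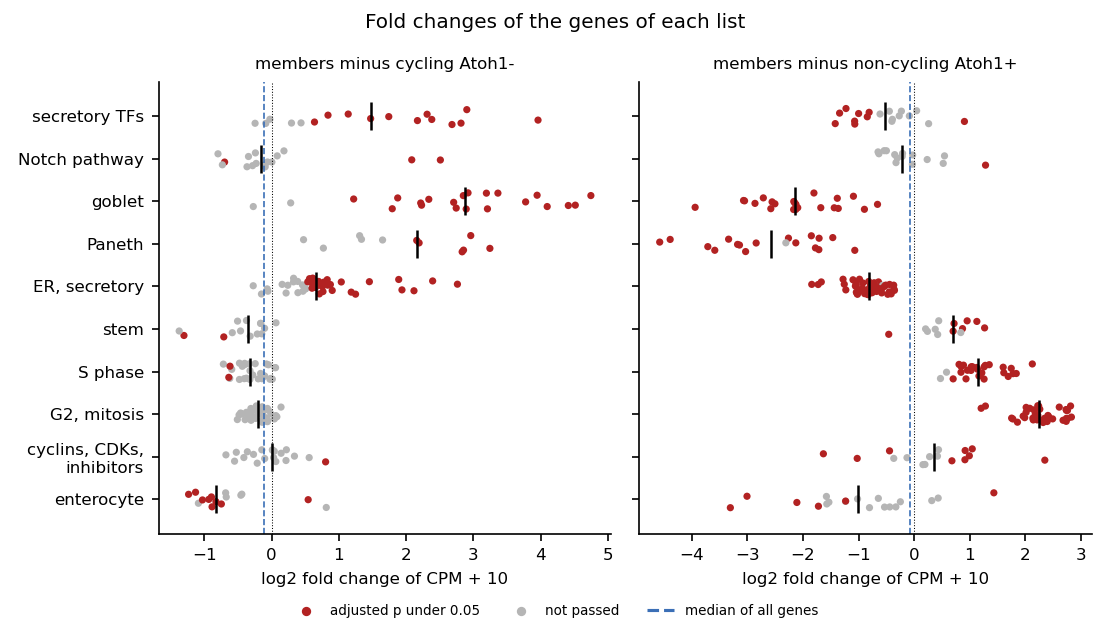
Log2 differences of CPM + 10 (x axes) of the tested genes of 10 lists (y axis) in members against cycling Atoh1-negative wells (left) and against non-cycling Atoh1-positive wells (right). Each point is 1 gene, red where it passed, the black bar is the list's median and the dashed line the median of all genes. Goblet genes have a median of 2.87 on the left and -2.14 on the right.

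Whether the Atoh1-positive state differed between cycling and non-cycling wells was tested as an interaction, the difference of members from cycling Atoh1-negative wells minus the difference of non-cycling Atoh1-positive from non-cycling Atoh1-negative wells. Of 6975 genes 32 were higher (0.459%) and 113 lower (1.62%), and 1057 had an unadjusted p under 0.05. With library totals the median of all genes moved from -0.064 to 0.104 and the higher share of calls from 22.1% to 71.9%, with 82 higher and 32 lower. No secretory transcription factor (0 of 18, 3 lower at an unadjusted p under 0.05) and no Notch gene (0 of 15, with 0 at that unadjusted level) passed limma's test, and the values were 0.35 ± 0.30 for Creb3l1, -0.69 ± 0.28 for Spdef, 0.34 ± 0.36 for Dll1 and 0.00 ± 0.42 for Hes1. Without a pass these do not show that the differences were alike.

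Goblet genes of the interaction were lower in 5 of 23, among them Klk1 and Bcas1, so the increase of these 5 with Atoh1 was smaller in cycling than in non-cycling wells. The goblet count was 2 of 23 in the GK5a libraries alone and 3 without GK5a-M2-4, and it ran from 0 to 11 over 21 alternatives. Klk1, a secreted protease, was at 80.7, 205 and 477 CPM in members, 3.04, 37.6 and 100 CPM in cycling Atoh1-negative wells and 738, 987 and 1540 CPM in non-cycling Atoh1-positive wells, with an interaction of -1.71 ± 0.34 (limma adjusted p = 0.010). Bcas1, at 0, 48.4 and 110 CPM in members and 154, 249 and 430 CPM in non-cycling Atoh1-positive wells, had -2.18 ± 0.41 (adjusted p = 0.0073). Without the replicate block the interaction of both genes did not pass (adjusted p = 0.17 and 0.065). In the secretory pathway list 10 of 45 were lower, among them Tmed3, a cargo receptor of the early secretory pathway, at -1.43 ± 0.23 (adjusted p = 0.0055), and Pdia3, a foldase of glycoproteins, at -1.0 ± 0.18 (adjusted p = 0.0065). The count was 3 of 45 with library totals, 4 in the GK5a libraries alone and 3 without GK5a-M2-4, and it ran from 0 to 14 over 21 alternatives. Rgs2, a regulator of G protein signalling, had the lowest interaction among genes named by rule, -2.41 ± 0.43 (adjusted p = 0.0055). Its levels were 0, 8.07 and 112 CPM in members and 207, 350 and 631 CPM in non-cycling Atoh1-positive wells, without overlap. Ccnd2, a cyclin of G1, was at 334, 744 and 984 CPM in members and 464, 551 and 626 CPM in cycling Atoh1-negative wells, with an interaction of -0.86 ± 0.20 (adjusted p = 0.024), which did not pass without GK5a-M2-1, GK5a-M2-4 or GK5b-G (adjusted p = 0.062, 0.08 and 0.054).

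Enterocyte genes of the interaction were higher in 3 of 22, among them Apob and Sis, with a median of 1.51. The count was 0 of 22 in the GK5a libraries alone, without GK5a-M2-4 or without GK5b-G, and 14 of 22 with 2 or more Atoh1 transcripts in Atoh1-positive wells (median 2.33). Sis, the sucrase-isomaltase of the brush border, had 2.44 ± 0.64 (limma adjusted p = 0.042), and it did not pass without the replicate block (adjusted p = 0.12). A higher interaction was no rise with Atoh1 in cycling wells. For Sis and for Apob, members lay above cycling Atoh1-negative wells in only 1 of 7 libraries. The enterocyte list had library medians of 0.414% in members and 0.533% in cycling Atoh1-negative wells. In non-cycling wells the step was larger, with 0.388% in Atoh1-positive and 1.85% in Atoh1-negative wells.

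The difference of members from cycling Atoh1-negative wells was also compared between the 2 GK5b and the 5 GK5a libraries. Of 6988 genes 0 passed limma's test and 90 had an unadjusted p under 0.05, which does not show that the codes were alike.

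Members varied among themselves with the number of Atoh1 transcripts. The 36 members with 1 transcript had a Creb3l1 transcript in 52.8%, Spdef in 16.7%, Id4 in 8.33% and Dll1 in 41.7% of wells. With 2 to 4 Atoh1 transcripts the shares were 81.1, 48.6, 35.1 and 59.5%, and with 10 or more they were 100, 95.1, 80.5 and 92.7%. The median depth over both codes was 23925 transcripts with 1, 14975 with 2 to 4, 16597 with 5 to 9 and 23618 with 10 or more. The first and the last kind were of similar depth in GK5b (25353 and 24263) but not in GK5a (22496 and 13553). The goblet list took a median of 0.369% of transcripts in members with 1 Atoh1 transcript, 2.73% with 2 to 4, 4.59% with 5 to 9 and 4.43% with 10 or more. These medians mix the codes, which differed. With 2 to 4 Atoh1 transcripts the goblet median was 3.36% in the 17 GK5a members and 0.619% in the 20 GK5b members, and with 5 to 9 it was 2.55% and 4.92%. The enterocyte medians were 0.532, 0.337, 0.147 and 0.13% over both codes. In GK5b they were 0.758, 0.511, 0.146 and 0.127%, while in GK5a they were 0.237, 0.211, 0.233 and 0.233%, so only the GK5b medians were lower with more Atoh1 transcripts. Only 2 GK5a members had 10 or more. The G2 and mitosis medians lay between 0.859 and 1.09% over both codes. In GK5a they were 0.649, 0.984, 0.994 and 1.18%, higher with more Atoh1 transcripts, and in GK5b 1.12, 0.792, 1.18 and 1.04%.

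The wells with 1 Atoh1 transcript also differed between the codes. In GK5b, 21 of 25 such members had under 0.5% goblet transcripts, and their median of 0.351% was near the 0.319% of cycling Atoh1-negative wells of the same plates. In GK5a the 11 such members had a median of 0.876% against 0.107%. With members limited to 2 or more Atoh1 transcripts, 35 of 45 secretory pathway genes and 11 of 17 secretory transcription factors rose against cycling Atoh1-negative wells. Over all members 111 of 152 had more than 1% goblet transcripts, 44 had more than 5%, 33 had under 0.5%, and 13 had more than 1% enterocyte transcripts.

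**Figure D5:**
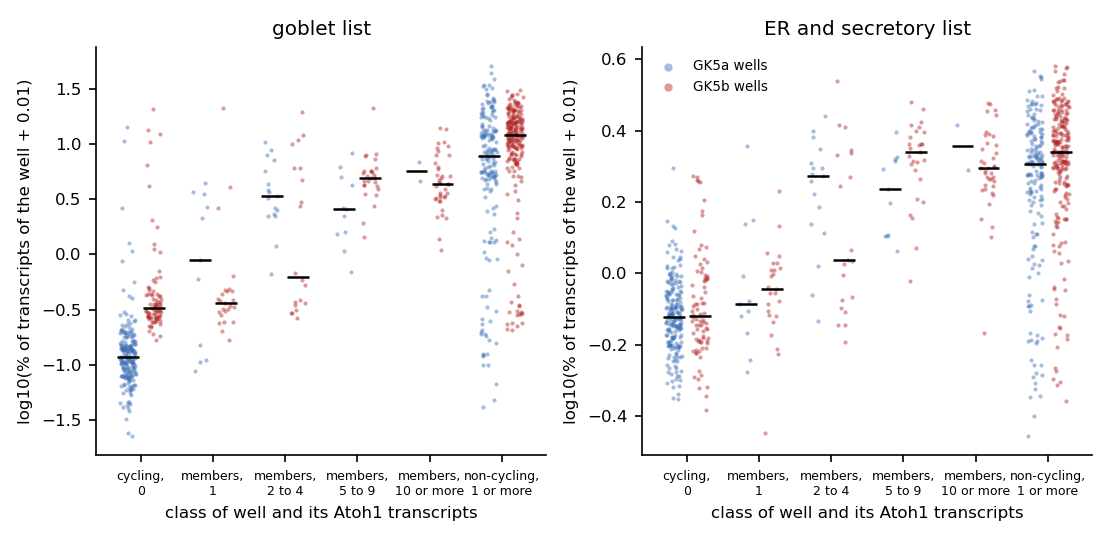
Goblet list (left) and ER and secretory list (right) in single wells, as log10 of the percent of the well's transcripts + 0.01 (y axes), by class of well and number of Atoh1 transcripts (x axes). Each point is 1 well, blue for GK5a and red for GK5b, and the bar is the median of each code. Over both codes the goblet medians are 0.369% in members with 1 Atoh1 transcript and 4.43% in members with 10 or more.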

How the data were processed

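The authors deposited a table per plate of molecule count estimates per gene and well, on a scale recorded here as other because the values are not whole. They map back to whole barcode counts under a correction for molecules that share a barcode of 6 bases, within 0.001. The submitters' processing notes name BWA 0.6.2-r126 and the mm10 build; which software counted the molecules, and its strand setting, is not given in the sources used here. Because counting by strand is not stated, reads of a gene and an antisense partner cannot be told apart. The 3 libraries of picked cells were not analysed here.

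Spike-ins were removed, wells with at least 1000 transcripts were kept, and wells were divided by Atoh1 and by Mki67 with Top2a. Deposited estimates were summed per library and class, scaled by trimmed mean of M values and taken to log2(CPM + 10), and limma 3.58.1 in R 4.3.3 gave the tests (lmFit, eBayes with trend), with the library as a block, since each library gives all classes. A gene entered with a mean of at least 20 CPM and 30 transcripts in all, which removes genes low in both classes. Fold changes on this scale understate low genes. The script was tested on simulated data.

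Atoh1, Mki67 and Top2a received no test. For each comparison the text names genes by a rule: the 10 largest changes in each direction that passed with the same sign in every library, the markers, the 4 smallest p of each of 16 lists, and the transcription factors and Notch genes of the lists. Only some of the genes that the rule names are described here, and not each in every comparison. The members and lists were chosen with earlier results of these data known. Thinning drew 4000 transcripts per well at random. Symbols are those of the tables, positions come from GENCODE on GRCm38, and promoter windows come from RefSeq on GRCm38.p6. Alternatives covered the added CPM, the filter, the scaling, weights, the block, the thresholds of the rule, the depth of wells and leaving out each library.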

Additional observations from a re-analysis of the deposited data

Results flagged for a closer look

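In 14 of 78 sets of 7 member values, the highest library lay apart from the rest by more than Dixon's 95% critical value. For normal values chance flags about 1 in 20 groups. These values come from sums of 75524 to 2176464 transcripts, some of them at 0, so that rate may not hold and the flags show no excess over chance. GK5a-M2-4 was highest for Lyz1 (21000 CPM), Itln1 (2680 CPM), the Paneth list (3.85% of transcripts), Ascl2 (137 CPM) and Rgcc (31.5 CPM), and it holds the 1 member with 36.0% Paneth transcripts. GK5b-G was highest for the share of cycling wells with Atoh1 (72.9%) and for Sis (148 CPM). GK5a-M2-1, with 5 members, was highest for Axin2 (208 CPM) and the Notch list (0.144%). GK5a-M2-5, with 6 members, was highest for the stromal list (0.00132% of 75524 transcripts), whose median over the libraries was 0. Cdkn1a was highest in GK5a-M2-2 (99.3 CPM), Rgs2 and the immune list in Gk5b-L (112 CPM and 0.00388%), and the tuft list in GK5a-M2-3 (0.00646%).

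In 12 named genes the difference between Atoh1-positive and Atoh1-negative wells was itself different in cycling and non-cycling wells by limma's interaction test at an adjusted p under 0.05. It was lower in cycling wells for the goblet genes Bcas1 (-2.18) and Klk1 (-1.71), and for Rgs2 (-2.41) and Ccnd2 (-0.86). Among secretory pathway genes it was lower for Tmed3 (-1.43), Pdia3 (-1.0), Pdia6 (-0.72), Hspa5 (-0.68) and Manf (-0.57). It was higher for the enterocyte genes Sis (2.44) and Apob (2.11) and for the Paneth list gene Guca2b (2.38). For Sis and Apob this was no rise with Atoh1 in cycling wells, since members lay above cycling Atoh1-negative wells in only 1 of 7 libraries. The interaction values are on the log2 scale, from 7 libraries each. None of the 12 passed without the replicate block. Bcas1, Klk1, Rgs2, Tmed3 and Pdia3 passed when any 1 library was left out. The other 7 did not pass without GK5a-M2-4, among them Guca2b, which also did not pass without GK5a-M2-2, GK5a-M2-3 or GK5a-M2-5 (adjusted p from 0.0502 to 0.12).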

How the results depend on the processing

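Leaving out each library in turn gave 234 to 370 higher and 156 to 286 lower genes for members against cycling Atoh1-negative wells (317 and 286 with all), 524 to 706 and 778 to 1083 against non-cycling Atoh1-positive wells (613 and 1133), and 9 to 43 and 25 to 112 in the interaction (32 and 113). In the first comparison the GK5a libraries alone gave 172 higher and 169 lower. Lower genes numbered 181 with 1 CPM added, 187 without the replicate block, 498 with 4 classes in the fit, 431 without the deepest 10% of wells and 134 with Mki67 and Top2a at 10 or more.

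In the second comparison, higher and lower genes numbered 1412 and 621 with library totals, 273 and 515 without the deepest wells and 287 and 659 in GK5a alone. Higher genes numbered 975 with 4 classes and 1044 against wells with neither proliferation transcript, and lower genes 662 with precision weights, 662 with mean CPM over wells and 750 with 2 or more Atoh1 transcripts.

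The interaction moved most, and its calls are the least certain. It gave 15 and 63 with 1 CPM added, 68 and 236 with 50 CPM, 82 and 32 with library totals, 61 and 48 with weights, 4 and 17 without the block, 14 and 19 with mean CPM, and 19 and 9 without the deepest wells. It gave 90 and 67 with 2 or more Atoh1 transcripts, 16 and 44 with Mki67 and Top2a at 10 or more, 18 and 68 against wells with neither, and 4 and 20 in GK5a alone.

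The block pairs classes of the same library. Without the replicate block the first 2 comparisons gave 275 and 187, and 502 and 911. Against non-cycling Atoh1-positive wells 3 genes changed sign: Cdca7 to -0.71 without the deepest wells, and Ddc to 1.16 and Sis to 0.34 with 2 or more Atoh1 transcripts. The share of cycling wells with Atoh1 fell on thinning from 23.3 to 7.32% in GK5a-M2-4, from 72.9 to 47.9% in GK5b-G and from 32.9 to 22.4% in Gk5b-L. The cause of these shifts was not tested. Of the 60 named genes of the first comparison, 35 kept direction and call in every alternative run. GK5a sums rest on 5 to 12 members, which limits what can be seen there.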
